A study of Arabidopsis thaliana with 64 samples.

Results

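Leaves of the Arabidopsis thaliana mutant bes1-D were compared with wild-type (WT) leaves after both had lost water for 4 hours. The comparison rests on 6 of the 64 samples that the labels of the series describe, 3 libraries of dehydrated bes1-D and 3 of dehydrated WT, chosen by their labelled genotype and treatment and by no measured value. All plants were 4 weeks old and had grown with 16 hours of light a day, and total RNA of leaf tissue was sequenced as single reads. The same 2 genotypes were also sequenced as unstressed controls (3 libraries each) and after 5 days without fixed carbon (2 libraries each), and 3 further genotypes, bri1-301, atg7-2 and DSK2 RNAi, entered the fit as well. Values are RPM, reads scaled to library size by the authors. The labels give the mutant by its allele name alone, and the sources used here state neither the accession of the WT line nor the ancestry of the bes1-D line. No label ties the replicates to different plants. Each p-value therefore reflects only the spread between libraries of a group, pooled over all 40 libraries of the fit, which can be technical.

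Brassinosteroids are plant steroid hormones that drive cell expansion. The receptor kinase BRI1 senses them at the cell surface and, through loss of the kinase BIN2, lets the transcription factors BES1 and BZR1 accumulate in the nucleus, where they activate growth genes and repress genes such as those of brassinosteroid synthesis. bes1-D is a dominant allele that stabilises the BES1 protein, so that BES1 acts without the usual need for hormone. In drought, BES1 and the stress factor RD26 are known to oppose each other at shared target genes.

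The 6 libraries held 28785974 to 29420302 reads, and a count of 3 reads, below which a gene is treated as not detected, is 0.102 to 0.105 RPM. Replicate 3 of both genotypes stood apart from replicates 1 and 2. The log2 level of each gene, less its mean over all 40 libraries, was set against log2 transcript length. The slope of replicate 3 was -0.50 in bes1-D and -0.57 in WT, whereas the other 4 dehydrated libraries lay between -0.03 and 0.14. The first principal component of the 6 libraries held 51.8% of the variance and separated replicate 3 from the rest, and the second held 35.9% and separated bes1-D from WT. As a check of the tissue, the 38 photosynthesis genes summed to 157453 to 169696 RPM in bes1-D and 145000 to 165831 RPM in WT. Bulk leaves cannot tell apart fewer cells of a type from less RNA per cell.

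Under dehydration 986 of 19824 tested genes were called higher and 860 lower in bes1-D than in WT (limma, adjusted p under 0.05), which is 4.97% and 4.34% of the genes tested. Of these, 425 were at least 2-fold higher and 477 at least 2-fold lower on the scale of log2(RPM + 0.5), which understates the change of low genes. The median difference over all tested genes was 0.02. Replicate 3 deviated in the same way in both genotypes, while replicates 1 and 2 matched as well across numbers as within them. With the replicate number as a block within the 6 libraries 2871 genes were called, 7.25% of all genes higher and 7.23% lower. Without replicate 3 of both genotypes the count was 930, and with the spread estimated from the 6 libraries alone it was 607. Leaving out bes1-D replicate 3 alone gave 1205, and leaving out WT replicate 2 alone gave 1153. The balance of directions depended on the method, since 53.4% of calls were higher here, 39.1% with edgeR, 42.9% with DESeq2 and 39.9% in the fit of the 6 libraries alone. In what follows a log2 difference is bes1-D minus WT with its standard error (SE), a mean level is given with its SD (n = 3 libraries a genotype), and "called" refers to this limma fit of all 40 libraries. Levels are compared within a gene and not between genes.

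BES1 itself was higher in the mutant. The transcript had 433, 332 and 541 RPM in bes1-D, against 241, 261 and 239 RPM in WT. The 3 bes1-D libraries lay above the 3 WT libraries, and the log2 difference was 0.79 ± 0.18 (adjusted p = 0.003). Without replicate 3 of both genotypes the adjusted p was 0.11, and with the spread estimated from the 6 libraries alone it was 0.094 (limma). The bes1-D mutation acts on the protein, so the transcript is no check of the label. Of the 5 relatives of BES1, 2 were called lower, beside 4.34% of all genes. BEH2 had 9.01, 10.3 and 11.4 RPM in bes1-D, against 60.9, 63.5 and 45.4 RPM in WT, a log2 difference of -2.40 ± 0.25 (adjusted p = 4.1e-08). BEH1 had 16.8 ± 0.772 RPM in bes1-D and 41.8 ± 6.29 RPM in WT, and differed by -1.28 ± 0.19 (adjusted p = 2.7e-05). Neither gene's libraries overlapped between genotypes. BZR1, the closest relative, averaged 65.5 ± 4.95 RPM in bes1-D and 54.1 ± 11.0 RPM in WT, with an adjusted p of 0.23 (limma), and BEH3 and BEH4 were not called either.

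Of the 10 genes of brassinosteroid synthesis, 6 were called lower in dehydrated bes1-D and none higher, against 4.34% of all genes called lower. The median log2 difference of the list was -1.06, beside 0.02 for all genes. CPD, a cytochrome P450 of the pathway and a classic target of feedback repression, had 34.0, 34.5 and 37.6 RPM in bes1-D, against 299, 295 and 378 RPM in WT. The groups were far apart, with a log2 difference of -3.17 ± 0.19 (adjusted p = 1.4e-13). BR6OX2, the oxidase that forms the most active hormone, brassinolide, had 0.414, 0.174 and 0.345 RPM in bes1-D, against 11.9, 11.8 and 6.59 RPM in WT. All bes1-D values were below 0.5 RPM, and the log2 difference was -3.67 ± 0.26 (adjusted p = 7.3e-12). ROT3, a C-23 hydroxylase, had 0.207, 0.279 and 0.276 RPM in bes1-D, against 4.2, 3.47 and 2.12 RPM in WT, and differed by -2.28 ± 0.20 (adjusted p = 5.8e-10). CYP90D1, which acts beside ROT3, had 0.162 ± 0.0413 RPM in bes1-D and 1.47 ± 0.391 RPM in WT, a difference of -1.56 ± 0.25 (adjusted p = 5.7e-05). DWF4, the C-22 hydroxylase regarded as rate-limiting, had 1.14, 0.489 and 1.48 RPM in bes1-D, against 2.96, 3.75 and 3.96 RPM in WT. Its bes1-D libraries varied more than 2-fold among themselves and stayed below every WT library, with a difference of -1.45 ± 0.33 (adjusted p = 0.0033). STE1, a sterol desaturase of the upstream sterol pathway, differed by -0.67 ± 0.15 (adjusted p = 0.0026). With the spread estimated from the 6 libraries alone, DWF4 and STE1 lost their calls (adjusted p 0.053 and 0.14, limma). The 4 members that were not called were DET2, BR6OX1, DWF1 and DWF5, of which DWF1 averaged 202 ± 21.4 RPM in bes1-D and 203 ± 55.8 RPM in WT.

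The 5 genes of brassinosteroid inactivation held 1 call, higher, beside 4.97% of all genes called higher. BAS1, a cytochrome P450 that hydroxylates and so inactivates the hormone, had 17.64, 19.7 and 18.0 RPM in bes1-D, against 5.67, 5.45 and 3.48 RPM in WT. The lowest bes1-D library was more than 3 times the highest WT library, and the log2 difference was 1.84 ± 0.21 (adjusted p = 1.5e-07). In unstressed leaves the difference of BAS1 was 0.43 ± 0.21, and the test of whether it changed with dehydration gave an adjusted p of 0.054 (limma). Among 8 tested genes of hormone perception and early signalling, the receptor BRL3 was the only call, lower, beside 4.34% of all genes called lower, with 2.59 ± 0.922 RPM in bes1-D and 9.16 ± 4.76 RPM in WT, a log2 difference of -1.54 ± 0.34 (adjusted p = 0.0029). The main receptor BRI1 averaged 30.8 ± 10.9 RPM in bes1-D and 66.0 ± 31.1 RPM in WT, and its log2 difference of -1.01 had an adjusted p of 0.069 (limma). The other 6 tested members, among them BAK1 and BIN2, were not called. The line bri1-301 carries a weak receptor allele, and its dehydrated leaves were compared with the same WT libraries. There CPD averaged 564 ± 102 RPM (SD, n = 3), BR6OX2 127 ± 28.0 RPM, ROT3 17.0 ± 1.07 RPM and DWF4 11.8 ± 2.05 RPM. With limma, the log2 differences of bri1-301 from WT were 0.79 for CPD, 3.61 for BR6OX2, 2.26 for ROT3 and 1.60 for DWF4, each positive where that of bes1-D was negative, and the highest adjusted p was 0.028. In the same contrast CYP90D1 differed by 2.11 (adjusted p = 1.9e-06), whereas STE1 was not called, at 0.15 (adjusted p = 0.51). Because both mutants were set against the same WT libraries, these values stand side by side and are not independent.

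Growth genes made up the list with the most calls. Of 23 genes linked to growth under brassinosteroid or auxin, promoters and blockers of elongation alike, 15 were called higher and 3 lower, beside 4.97% and 4.34% of all genes. The median log2 difference was 1.3. SAUR15, a small auxin-induced protein that promotes expansion, had 21.1, 13.6 and 37.5 RPM in bes1-D, against 3.54, 4.94 and 4.58 RPM in WT. The bes1-D libraries were spread nearly 3-fold but all exceeded every WT library, with a difference of 2.23 ± 0.31 (adjusted p = 7.1e-06). The 6 genes SAUR19 to SAUR24, which lie together on chromosome 5 and whose products keep the plasma membrane proton pump active, were all called higher by 1.3 to 2.0. SAUR21 had 64.1 ± 7.86 RPM in bes1-D and 15.8 ± 3.60 RPM in WT, and SAUR19 had 12.7 ± 1.64 RPM in bes1-D and 4.24 ± 0.690 RPM in WT. These 6 genes resemble each other closely, and the sources used here do not state how reads shared between copies were assigned. Expansins loosen the cell wall. EXPA1 had 473, 259.9 and 492 RPM in bes1-D, against 135, 101 and 117 RPM in WT, a difference of 1.74 ± 0.35 (adjusted p = 0.0011). EXPA11 and EXPA8 were also called, at 1.64 ± 0.37 and 1.52 ± 0.45, and EXPA5 was not. XTH19, a wall enzyme that cuts and rejoins xyloglucan, differed by 1.46 ± 0.35 (adjusted p = 0.005).

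The PRE proteins are small helix-loop-helix factors that promote elongation, and all 3 on the list were called higher. PRE6 had 339 ± 66.2 RPM in bes1-D and 146 ± 23.8 RPM in WT, and PRE5 had 6.75 ± 3.13 RPM in bes1-D and 2.32 ± 0.615 RPM in WT. PRE1 differed by 0.83 ± 0.26 (adjusted p = 0.036), with 1 WT library inside the range of the bes1-D libraries. IAA19, an auxin-response repressor that auxin itself induces, averaged 4.37 ± 0.945 RPM in bes1-D and 2.37 ± 0.0874 RPM in WT. The 3 genes called lower were XTH24, IBH1 and IAA29. XTH24 had 56.1, 67.2 and 62.3 RPM in bes1-D, against 209.8, 236 and 211 RPM in WT, and differed by -1.82 ± 0.35 (adjusted p = 0.00063). IBH1, a helix-loop-helix protein that blocks elongation and is antagonised by the PRE proteins, had 18.1, 16.7 and 29.3 RPM in bes1-D, against 38.5, 47.2 and 61.6 RPM in WT, a difference of -1.2 ± 0.23 (adjusted p = 0.00065). IAA29 averaged 12.3 ± 4.80 RPM in bes1-D and 25.1 ± 5.05 RPM in WT. Without replicate 3 of both genotypes, 10 members were called higher and 3 lower, and EXPA11, EXPA8, XTH19, PRE1 and IAA19 were among the calls lost.

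**Figure D1:**
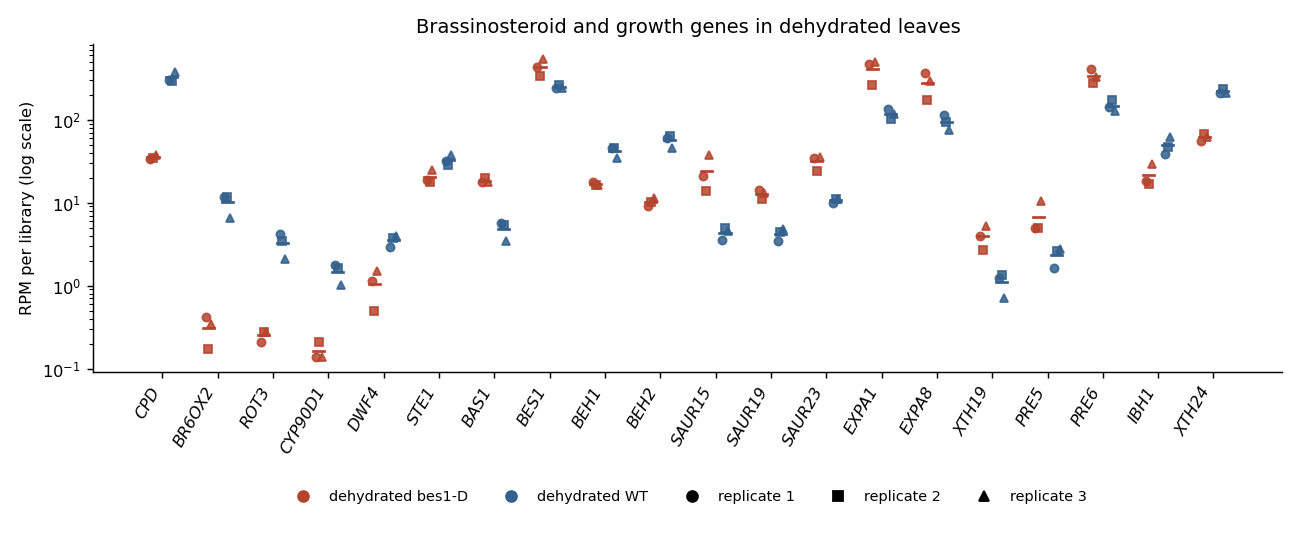
RPM per library on a log axis for 20 brassinosteroid and growth genes, with dehydrated bes1-D (red) left of dehydrated WT (blue), the 3 replicates as different symbols and the group means as short lines. CPD and BR6OX2 lie far lower in bes1-D, while SAUR15 and EXPA1 lie higher, with no overlap between genotypes.

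Promoter sequences were read to see which short motifs accompanied each direction. BES1 and BZR1 bind the brassinosteroid response element CGTGTG (variant CGTGCG), the G-box CACGTG and other E-boxes of the form CANNTG, while ACGTGT is the core of elements bound by ABA-activated factors, CCGAC is the core bound by DREB factors and TTGAC the core bound by WRKY factors. Each was searched on both strands of the 300 bases from 250 before to 50 after the annotated gene start in RefSeq's TAIR10.1 assembly, for 19392 tested genes. The motifs overlap, since a G-box followed by TG also holds the ACGTGT and the CGTGTG motif, and every G-box is an E-box. The motif CGTGTG occurred in 13.7% of 838 promoters of genes called lower in dehydrated bes1-D and in 4.25% of 965 promoters of genes called higher, against 6.84% of all. CGTGTG not preceded by A, and so not part of ACGTGT, occurred in 6.92% of the lower and 3.32% of the higher genes, against 4.23% of all. CACGTG was found in 14.9% of the lower and 6.74% of the higher genes, against 9.12% of all, and ACGTGT in 22.9% and 11.5%, against 13.8%. CANNTG was present in 65.4% and 67.5%, against 62.5%. The mean GC content was 31.3% in both called sets and 32.0% in all. For genes called in unstressed leaves, CGTGTG occurred in 10.5% of the lower and 5.37% of the higher ones. For genes called in starved leaves it occurred in 9.38% and 6.08%. These shares are descriptions without a test, and a match is not a binding site.

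**Figure D2:**
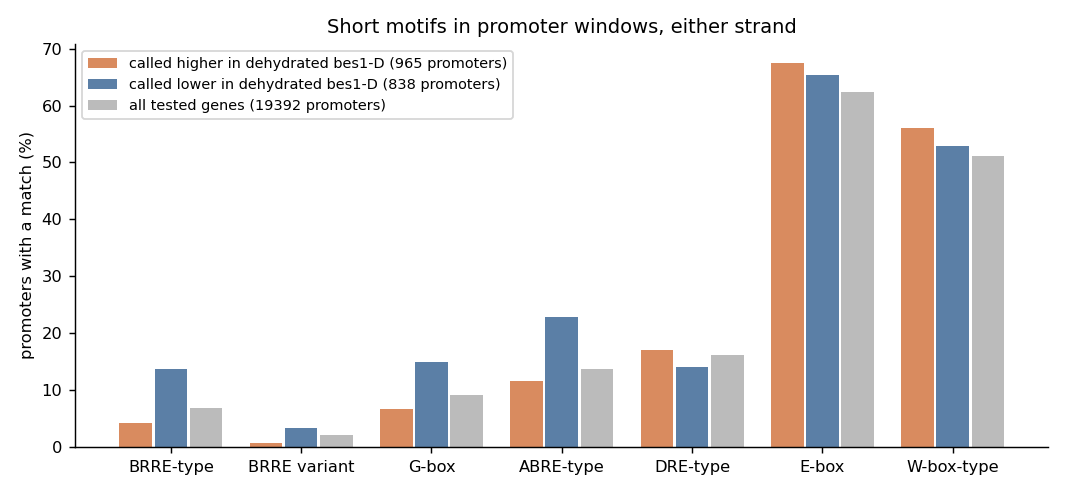
Percent of promoter windows holding each motif on either strand, for genes called higher (orange), called lower (blue) and all tested genes (grey), with CGTGTG as BRRE-type, CGTGCG as BRRE variant, CACGTG as G-box, ACGTGT as ABRE-type, CCGAC as DRE-type, CANNTG as E-box and TTGAC as W-box-type. The BRRE-type motif stands at 13.7% for genes called lower and 4.25% for genes called higher.

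The 250 bases before the annotated start of 4 genes are given as examples, written 5′ to 3′ on the gene's own strand from RefSeq's TAIR10.1. BEH2 (chr4:17334356-17334605, minus strand) and NAC019 (chr1:19698483-19698732, minus strand; described with the stress factors) were both lower in bes1-D and carry CGTGTG, whose matches on either strand, CGTGTG or CACACG, are in capitals. BEH2 holds 3 matches, of which 2 overlap in a palindrome, and NAC019 holds 2.
BEH2: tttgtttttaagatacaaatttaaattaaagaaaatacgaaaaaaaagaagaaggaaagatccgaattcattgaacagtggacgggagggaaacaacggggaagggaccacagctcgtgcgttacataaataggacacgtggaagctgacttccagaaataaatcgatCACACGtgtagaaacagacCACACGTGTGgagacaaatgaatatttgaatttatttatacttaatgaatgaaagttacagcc
NAC019: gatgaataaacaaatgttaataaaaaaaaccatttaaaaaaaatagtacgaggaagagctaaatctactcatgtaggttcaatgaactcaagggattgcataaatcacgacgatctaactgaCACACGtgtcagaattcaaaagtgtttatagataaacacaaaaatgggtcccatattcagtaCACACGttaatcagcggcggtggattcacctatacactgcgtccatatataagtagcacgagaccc
CPD (chr5:1706949-1707198, minus strand), strongly lower, and SAUR15 (chr4:18125807-18126056, plus strand), strongly higher, had no CGTGTG in the window. Capitals mark CANNTG in them, of which CPD has 1 match and SAUR15 has 2 here and 1 more after the start.
CPD: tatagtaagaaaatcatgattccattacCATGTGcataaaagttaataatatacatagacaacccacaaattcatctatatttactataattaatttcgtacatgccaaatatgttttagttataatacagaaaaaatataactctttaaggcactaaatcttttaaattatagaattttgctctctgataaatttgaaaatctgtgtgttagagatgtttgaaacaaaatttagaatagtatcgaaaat
SAUR15: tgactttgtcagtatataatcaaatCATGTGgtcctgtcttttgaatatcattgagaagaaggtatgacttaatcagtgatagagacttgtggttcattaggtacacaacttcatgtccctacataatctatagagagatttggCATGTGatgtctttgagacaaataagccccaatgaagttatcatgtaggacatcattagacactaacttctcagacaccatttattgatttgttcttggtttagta

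The stress-responsive transcription factors were lower or not called. Of 19 NAC, ABF, MYB, HD-Zip and zinc finger factors linked to drought and abscisic acid (ABA), 5 were called lower in dehydrated bes1-D and none higher, beside 4.34% of all genes called lower. The median log2 difference was -0.43. MYB2, an activator of dehydration genes, had 3.49, 5.41 and 3.24 RPM in bes1-D, against 28.1, 30.3 and 43.4 RPM in WT. The WT libraries were at least 5 times the highest bes1-D library, and the difference was -2.92 ± 0.25 (adjusted p = 4.3e-10). NAC019 had 53.8, 73.0 and 76.9 RPM in bes1-D, against 182, 226 and 422 RPM in WT, with the highest value in WT replicate 3 and no overlap, a difference of -1.94 ± 0.30 (adjusted p = 3.8e-05). NAC055, its close homolog, had 16.7, 27.3 and 23.7 RPM in bes1-D, against 60.1, 70.0 and 116 RPM in WT, and differed by -1.81 ± 0.31 (adjusted p = 0.00013). RD26, also called ANAC072 and the factor that opposes BES1, had 53.0, 62.5 and 50.7 RPM in bes1-D, against 145, 158 and 207 RPM in WT. The groups were separated by more than 2-fold, with a difference of -1.60 ± 0.23 (adjusted p = 1.2e-05). NAC2 (AT5G39610), a NAC factor of ageing leaves, had 56.1 ± 1.81 RPM in bes1-D and 123 ± 6.70 RPM in WT, a difference of -1.12 ± 0.17 (adjusted p = 3.6e-05). The 5 calls held without replicate 3 of both genotypes. The ABA-activated factors ABF1 to ABF4 were not called, at -0.46 to -0.05. In bri1-301, set against the same WT libraries, the log2 difference of RD26 was -0.05 with an adjusted p of 0.91 and that of NAC019 was 0.04 with an adjusted p of 0.94 (limma). The list was also lower in unstressed bes1-D, with 6 members called lower and none higher, beside 8.86% of all genes called lower. Its median there was -0.53, beside -0.20 for all genes. There RD26 differed by -1.20, NAC019 by -1.58 and MYB2 by -2.22, each called, and NAC055 was not called. No member passed the test of whether the difference changed with dehydration. None of the 5 was called in dehydrated against control WT (lowest adjusted p 0.052, limma).

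The ABA pathway itself held few calls, 1 lower in each of 2 lists, where 4.34% of all genes were called lower. Among 21 ABA receptors, phosphatases and kinases, HAI2, a clade A phosphatase that ABA induces, was called lower, with 9.84, 10.5 and 5.07 RPM in bes1-D, against 25.1, 25.0 and 31.3 RPM in WT and a difference of -1.68 ± 0.53 (adjusted p = 0.041). The median of the list was -0.40. With the replicate block within the 6 libraries 5 members were called lower and 1 higher, beside 7.23% and 7.25% of all genes, and without replicate 3 none was. In 11 tested genes of ABA synthesis and breakdown, CYP707A2, an ABA 8′-hydroxylase, had 6.35, 6.84 and 5.62 RPM in bes1-D, against 17.3, 16.7 and 21.8 RPM in WT and differed by -1.49 ± 0.29 (adjusted p = 0.00083). NCED3, the dioxygenase that drives ABA synthesis in drought, averaged 27.2 ± 5.15 RPM in bes1-D and 30.3 ± 3.42 RPM in WT, and was not called. Of 19 dehydrins, LEA and cold-regulated proteins that protect cells from water loss, 2 were called higher and 2 lower, beside 4.97% and 4.34% of all genes. KIN2 had 2330.4, 2609 and 2261 RPM in bes1-D, against 1064, 1092 and 1555 RPM in WT, and its difference of 0.98 ± 0.32 (adjusted p = 0.048) was lost under 12 of 18 alternative settings. COR413-PM1 differed by 0.70 ± 0.19 (adjusted p = 0.016). LEA14 had 76.8, 114 and 128 RPM in bes1-D, against 222, 242 and 364 RPM in WT, a difference of -1.37 ± 0.23 (adjusted p = 0.00011), and COR15B differed by -1.27 ± 0.39 (adjusted p = 0.036). RD29A, a standard reporter of drought and ABA, averaged 201 ± 114 RPM in bes1-D and 152 ± 76.7 RPM in WT, and RAB18, an ABA-induced dehydrin, 38.5 ± 11.4 RPM in bes1-D and 78.8 ± 26.8 RPM in WT. Neither was called. RD29B averaged 18.9 ± 12.4 RPM in bes1-D and 3.40 ± 0.703 RPM in WT, with an adjusted p of 0.085 (limma).

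Of 19 DREB, DDF and ERF factors, 6 were called higher and 1 lower, beside 4.97% and 4.34% of all genes, and the median was 0.44. CBF2, a DREB factor of the cold response, had 9.70, 7.23 and 11.0 RPM in bes1-D, against 2.61, 2.89 and 4.81 RPM in WT, a difference of 1.34 ± 0.40 (adjusted p = 0.032). CEJ1, another member of the DREB family, had 28.9, 41.5 and 40.7 RPM in bes1-D, against 13.8, 11.9 and 17.0 RPM in WT, and differed by 1.34 ± 0.26 (adjusted p = 0.0008). ERF104 and ERF105, ethylene response factors induced quickly by stress, differed by 1.12 ± 0.35 (adjusted p = 0.036), and by 1.66 ± 0.50 (adjusted p = 0.03). DDF1 differed by 1.18 ± 0.26 at a low level, 0.993 ± 0.0362 RPM in bes1-D and 0.160 ± 0.0721 RPM in WT, and RAP2.4 by 0.52 ± 0.15. ERF1, which joins the ethylene and jasmonate pathways, was the member called lower, at -1.07 ± 0.30 (adjusted p = 0.021). DREB2A, the main DREB factor of drought, averaged 6.25 ± 1.83 RPM in bes1-D and 5.71 ± 1.84 RPM in WT, and was not called. Without replicate 3 of both genotypes, 3 members were called higher and none lower, and CBF2, ERF104, ERF105 and ERF1 were lost.

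Among 15 WRKY factors, 2 were called higher and 1 lower, beside 4.97% and 4.34% of all genes, so that the single lower call is near the share of all genes. With the spread estimated from the 6 libraries alone, WRKY40 was the only call. WRKY18 had 14.8, 42.8 and 15.6 RPM in bes1-D, against 6.64, 10.3 and 7.00 RPM in WT, with the highest value in bes1-D replicate 2, and differed by 1.40 ± 0.44 (adjusted p = 0.041). WRKY60 differed by 0.95 ± 0.27 (adjusted p = 0.019). WRKY40, which forms complexes with both of them, had 2.31, 2.93 and 4.51 RPM in bes1-D, against 10.8, 13.4 and 10.0 RPM in WT, and was lower by -1.70 ± 0.40 (adjusted p = 0.0049). WRKY46, WRKY54 and WRKY70, which are known to work with BES1 in growth and drought, averaged 6.10 ± 3.13 RPM in bes1-D and 3.53 ± 1.56 RPM in WT, 13.1 ± 2.94 RPM in bes1-D and 7.69 ± 2.27 RPM in WT and 155 ± 72.6 RPM in bes1-D and 80.2 ± 33.9 RPM in WT. None of these was called. WRKY40 kept its call without replicate 3 of both genotypes, and WRKY18 and WRKY60 did not.

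Osmolytes, surface wax and aquaporins bear on the water balance of leaves. Of 14 osmolyte genes 2 were called higher and 1 lower, beside 4.97% and 4.34% of all genes. GOLS3, a galactinol synthase for raffinose sugars, had 9.25, 7.92 and 9.20 RPM in bes1-D, against 2.2, 2.35 and 1.06 RPM in WT, a difference of 2.02 ± 0.22 (adjusted p = 5.1e-08). RS5, a raffinose synthase, differed by 1.04 ± 0.26 (adjusted p = 0.0079). BAM1, a plastid beta-amylase, was lower at -0.99 ± 0.23 (adjusted p = 0.0038). P5CS1, which limits proline synthesis in drought, averaged 242 ± 113 RPM in bes1-D and 371 ± 93.6 RPM in WT, and was not called. LTP2, a lipid transfer protein of the epidermis, was the call among 13 wax and lipid transfer genes, where 4.97% of all genes were called higher, with 327, 645 and 434 RPM in bes1-D, against 168, 154 and 149 RPM in WT and a difference of 1.52 ± 0.31 (adjusted p = 0.0012). Of 17 aquaporins, which carry water across membranes, 4 were called higher and none lower, beside 4.97% of all genes called higher, and the median was 0.52. TIP2;1 of the vacuole had 1221, 1076 and 1424 RPM in bes1-D, against 421, 447 and 496 RPM in WT, a difference of 1.44 ± 0.39 (adjusted p = 0.016). TIP2;2, PIP2;8 and PIP2;6 were called at 1.00 ± 0.28, 0.89 ± 0.22 and 0.76 ± 0.17. With edgeR 1 aquaporin was called.

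Jasmonate is a lipid-derived hormone of wounding and defence. Of 25 genes of its synthesis and response, 7 were called lower and none higher, beside 4.34% of all genes called lower. In 22 of them the difference was negative, and the median was -0.78. LOX2, the plastid lipoxygenase that starts jasmonate synthesis, had 736, 783 and 287 RPM in bes1-D, against 2646, 2446 and 1508 RPM in WT, a difference of -1.96 ± 0.51 (adjusted p = 0.012). LOX3, another lipoxygenase of the pathway, had 21.2, 31.8 and 10.1 RPM in bes1-D, against 96.8, 102 and 46.9 RPM in WT, and differed by -2.0 ± 0.50 (adjusted p = 0.008). In both genes replicate 3 was the lowest library of its genotype. CYP94B3, which inactivates the active jasmonate-isoleucine, had 18.9, 24.1 and 31.5 RPM in bes1-D, against 92.9, 66.9 and 108 RPM in WT, a difference of -1.83 ± 0.43 (adjusted p = 0.0046). VSP1, a vegetative storage protein and jasmonate marker, had 209, 185 and 132 RPM in bes1-D, against 385, 568 and 782 RPM in WT, and differed by -1.69 ± 0.40 (adjusted p = 0.0056). The other 3 calls were AOC3, JAZ3 and JAZ1, at -1.59, -1.11 and -0.99. With the replicate block within the 6 libraries 11 members were called lower, beside 7.23% of all genes, and without replicate 3 of both genotypes 3 were. The master regulator MYC2 averaged 229 ± 41.2 RPM in bes1-D and 192 ± 55.6 RPM in WT. For unstressed leaves 5 members of the list were called lower and 2 higher, beside 8.86% and 6.82% of all genes, with a median of -0.02. LOX2 was lower there by -2.42 and VSP1 by -1.85, both called, and LOX3 and CYP94B3 were not called, at -0.02 and 0.25. The test of whether the difference changed with dehydration called 1 member, LOX4.

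Salicylic acid and defence genes moved in both directions. Of 22 members, 7 were called higher and 3 lower, beside 4.97% and 4.34% of all genes. The higher ones included NIMIN1, which binds the salicylic acid regulator NPR1, with 6.35, 22.4 and 15.3 RPM in bes1-D, against 1.2, 2.04 and 2.08 RPM in WT and a difference of 2.60 ± 0.43 (adjusted p = 8.0e-05). SARD1, FRK1, PUB22, GRX480, NIMIN2 and MKS1 were higher as well, by 0.75 to 1.76. The pathogenesis-related gene PR2, a glucanase, had 61.3, 61.6 and 77.2 RPM in bes1-D, against 694, 345 and 187 RPM in WT. The WT libraries ranged almost 4-fold and still lay above the bes1-D libraries, and the difference was -2.41 ± 0.48 (adjusted p = 0.00094). PR5 had 16.2, 24.4 and 20.7 RPM in bes1-D, against 161, 88.3 and 55.5 RPM in WT, with the same order of WT libraries, and differed by -2.17 ± 0.44 (adjusted p = 0.001). FMO1, an enzyme of systemic immunity, differed by -1.81 ± 0.42 (adjusted p = 0.0038). PR1 averaged 47.9 ± 11.5 RPM in bes1-D and 228 ± 101 RPM in WT, with an adjusted p of 0.063 (limma). When replicate 3 of both genotypes was left out, 2 members were called higher and 3 lower.

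Glucosinolates are sulfur-rich defence compounds of this plant family, and camalexin is its main phytoalexin. Of 16 tested genes of aliphatic glucosinolates, 4 were called lower and none higher, beside 4.34% of all genes called lower. In 15 of them the difference was negative, and the median was -0.60. MYB76, a regulator of the pathway, had 0.863, 1.64 and 0.620 RPM in bes1-D, against 4.2, 4.43 and 3.72 RPM in WT, a difference of -1.63 ± 0.30 (adjusted p = 0.00039). CYP79F1, which converts chain-elongated methionine, had 48.9, 40.1 and 27.6 RPM in bes1-D, against 122, 123 and 60.6 RPM in WT, and differed by -1.34 ± 0.35 (adjusted p = 0.01). SOT17 and FMOGS-OX3 were called at -1.11 ± 0.33 and -1.05 ± 0.31. With the replicate block within the 6 libraries 11 members were called lower, where 7.23% of all genes were. The count was 2 without replicate 3 of both genotypes, where SOT17 and FMOGS-OX3 lost their calls, and 1 with the spread estimated from the 6 libraries alone. More members differed in unstressed leaves, where 15 were called lower and none higher, beside 8.86% of all genes called lower, with a median of -1.22. No member passed the test of whether the difference changed with dehydration. Of 20 genes of indole glucosinolates and camalexin, 2 were called higher and 5 lower, beside 4.97% and 4.34% of all genes. PAD3 and CYP71A13, enzymes of camalexin synthesis, had 2.59, 5.83 and 2.62 RPM in bes1-D, against 24.1, 20.7 and 16.9 RPM in WT for PAD3 and 5.04, 20.2 and 6.03 RPM in bes1-D, against 51.2, 37.0 and 39.2 RPM in WT for CYP71A13. Their differences were -2.41 ± 0.48 (adjusted p = 0.00093), and -2.23 ± 0.40 (adjusted p = 0.00025). CYP81F1, which hydroxylates the indole ring, had 22.3, 22.7 and 18.4 RPM in bes1-D, against 115, 114 and 94.8 RPM in WT, and differed by -2.32 ± 0.37 (adjusted p = 5.3e-05). The 2 higher genes, IGMT2 and IGMT3, are methyltransferases of a cluster of 4 similar copies close to BES1 on chromosome 1. IGMT3 had 41.4, 51.0 and 71.2 RPM in bes1-D, against 2.03, 3.47 and 3.76 RPM in WT, a difference of 3.94 ± 0.27 (adjusted p = 5.0e-12), and IGMT2 differed by 3.07 ± 0.30 (adjusted p = 1.0e-08). The neighbouring copies IGMT1 and IGMT4 averaged 13.6 ± 2.95 RPM in bes1-D and 11.9 ± 3.32 RPM in WT and 124 ± 19.3 RPM in bes1-D and 159 ± 28.5 RPM in WT, without a call.

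The starvation list holds genes that respond to lack of sugar or break down branched-chain amino acids. Of its 18 members 6 were called lower in dehydrated bes1-D and none higher, beside 4.34% of all genes called lower. In 17 of them the difference was negative, and the median was -0.70. DIN1, a senescence-associated gene induced in the dark, had 572, 844 and 526 RPM in bes1-D, against 1557, 2332 and 2352 RPM in WT, a difference of -1.69 ± 0.31 (adjusted p = 0.00035). DIN11, an oxygenase gene of the same response, had 0.759, 0.907 and 1.03 RPM in bes1-D, against 4.13, 6.06 and 8.16 RPM in WT, and differed by -2.2 ± 0.37 (adjusted p = 0.00013). BCAT2, a branched-chain aminotransferase, and IVD, a dehydrogenase of leucine breakdown, differed by -1.58 ± 0.37 (adjusted p = 0.0042), and by -1.12 ± 0.27 (adjusted p = 0.0069). ASN1, an asparagine synthetase, and DIN3 were called at -1.01 and -0.91. Without replicate 3 of both genotypes 3 members were called lower, and with the block within the 6 libraries 11 were, beside 2.50% and 7.23% of all genes in those fits. Unstressed leaves had 10 members called lower and none higher, beside 8.86% of all genes called lower, with a median of -0.97. After starvation 4 members were called lower and 1 higher, beside 15.9% and 9.5% of all genes. The higher one was DIN11, at 1.56 ± 0.46 (adjusted p = 0.012, limma). No member passed the test of whether the difference changed between control and dehydration.

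The remaining lists held at most 1 call each, where 4.97% of all genes were called higher and 4.34% lower. LHCB1.2, among several near-identical antenna proteins and located in the chromosome 1 stretch described below, was the only call among 38 photosynthesis genes, with 6595, 6296 and 6825 RPM in bes1-D, against 2955, 2729.9 and 3042 RPM in WT. PAP1, a MYB activator of anthocyanin synthesis, differed by -1.63 ± 0.47 (adjusted p = 0.025), the only call of 13 tested flavonoid genes. RVE4 was the only call of 18 clock genes, at -0.68 ± 0.20 (adjusted p = 0.029). No member was called among 24 autophagy, 13 tested heat shock or 13 cell cycle genes. With the replicate block within the 6 libraries 3 heat shock genes were called higher and 1 lower, beside 7.25% and 7.23% of all genes. Markers of other cell types gave 1 higher and 1 lower call in 45 tested genes, below those shares of all genes. PDF1 of the epidermis was higher at 0.70 ± 0.19 (adjusted p = 0.017), and AP1 of floral meristems was lower at -0.99 ± 0.27 (adjusted p = 0.017), both lost without replicate 3 of both genotypes. The 10 guard cell markers summed to 3226 to 5144 RPM in bes1-D and 4417 to 8126 RPM in WT, with a median difference of -0.35. The 9 phloem markers summed to 322 to 407 RPM in bes1-D and 372 to 384 RPM in WT, and the 10 xylem markers to 46.4 to 63.0 RPM in bes1-D and 52.2 to 60.7 RPM in WT. The 8 epidermis markers summed to 1258 to 1733 RPM in bes1-D and 1227 to 1303 RPM in WT, and the 9 floral and meristem markers to 9.53 to 14.7 RPM in bes1-D and 8.36 to 9.97 RPM in WT. No marker was at 0 in all 6 libraries. The part of these shifts in the results above was not tested.

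**Figure D3:**
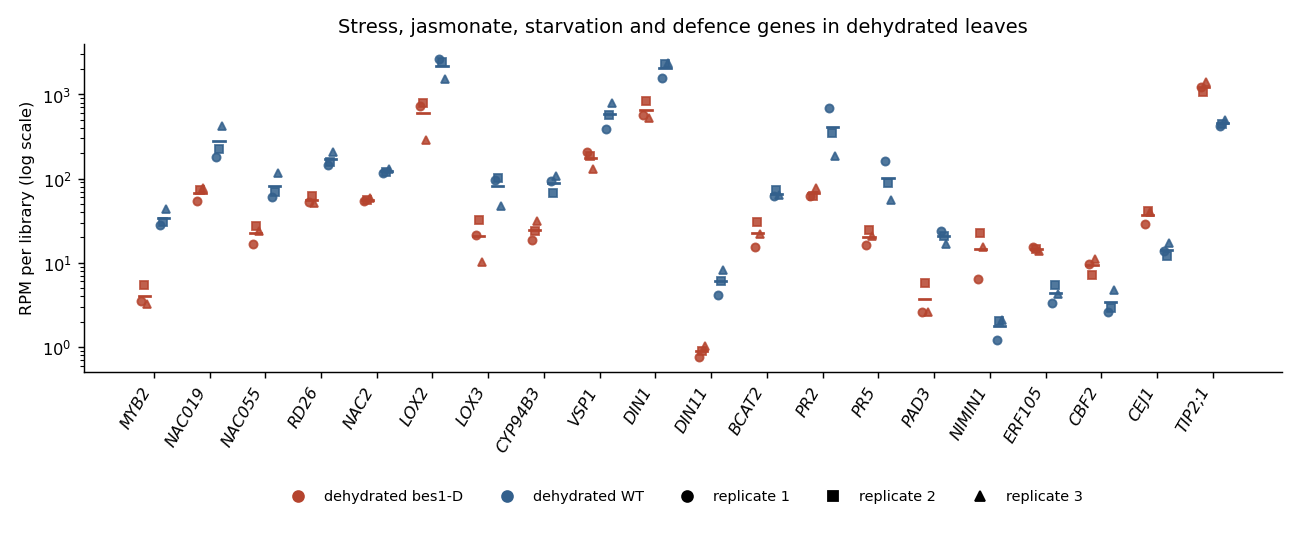
RPM per library on a log axis for 20 stress, jasmonate, starvation and defence genes, with dehydrated bes1-D (red) left of dehydrated WT (blue), the 3 replicates as different symbols and the group means as short lines. MYB2, NAC019, NAC055, RD26 and NAC2 lie lower in bes1-D without overlap, while NIMIN1, ERF105, CBF2 and CEJ1 lie higher.

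**Figure D4:**
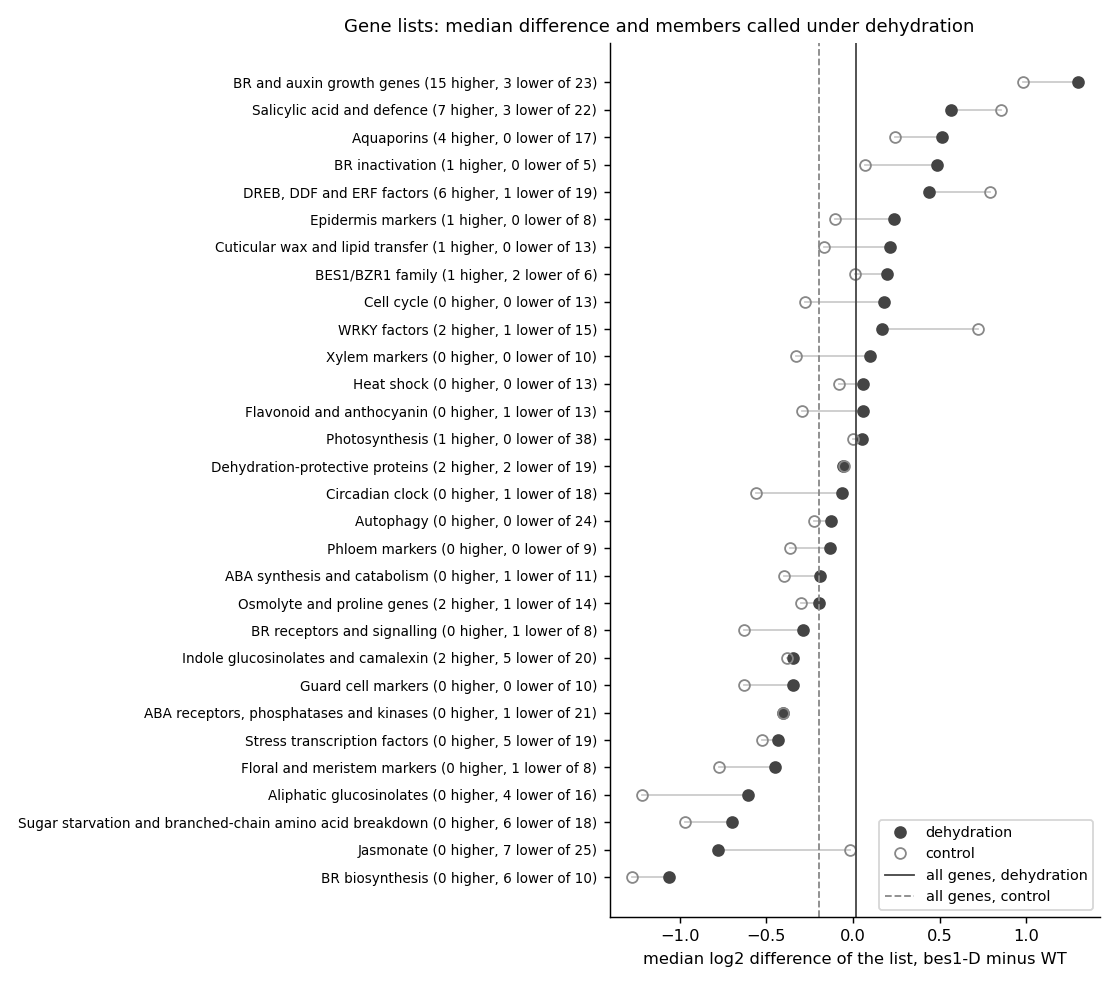
Median log2 difference (bes1-D minus WT) of each gene list under dehydration (filled) and in control (open), with lines at the median of all tested genes and, beside each name, the members called under dehydration. Growth genes stand highest at 1.3 and brassinosteroid synthesis lowest at -1.06. The jasmonate list stands at -0.78 under dehydration and -0.02 in control, where all genes stand at -0.20. In control 5 jasmonate members were called lower and 2 higher, beside 8.86% and 6.82% of all genes.

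Many of the genes that differed most lay on chromosome 1, which carries BES1. Among genes with a symbol, at least 5 RPM in the higher group and no overlap between genotypes, 8 of the 10 highest and 6 of the 10 lowest were on that chromosome. Chromosome 1 held 26.5% of all tested genes, and of the called genes that met these criteria it held 24.2% of the 331 higher and 30.5% of the 351 lower ones. WAK4, a wall-associated kinase, had 13.6, 23.5 and 9.27 RPM in bes1-D, against 0.0688, 0.0681 and 0 RPM in WT. The bes1-D libraries held 1335 reads in all, and each WT library held 2 or 0, which is under the floor of 3 reads. Set against 3 reads in every WT library, the gene was at least 150.2-fold higher in bes1-D. WAK3, of the same gene cluster, differed by 2.53 ± 0.47 (adjusted p = 0.00043), with WT libraries from 1.02 to 9.25 RPM. MRD1 had 25.2, 24.0 and 34.5 RPM in bes1-D, against 0.722, 2.76 and 0.341 RPM in WT. Its neighbour HEI10, which acts in meiotic crossover formation, had 27.4, 27.9 and 34.7 RPM in bes1-D, against 1.79, 4.09 and 1.06 RPM in WT. In these 2 genes the WT libraries were the ones that stood apart. MRD1 averaged 17.9 RPM in dehydrated bri1-301, 19.3 RPM in atg7-2 and 18.9 RPM in DSK2 RNAi, and HEI10 averaged 21.8, 25.3 and 23.1 RPM in the same 3 lines. Against the same WT libraries bri1-301 differed by 3.62 ± 0.28 for MRD1 and 3.13 ± 0.22 for HEI10 (adjusted p = 2.3e-10 and 3.6e-11, limma), so these differences are not particular to bes1-D. TBL38, of a family that acetylates wall polysaccharides, had 174, 112 and 162 RPM in bes1-D, against 17.3, 23.3 and 26.0 RPM in WT. MIZ1, needed for root bending towards water, and the auxin-induced SAUR26 were the 2 of the highest genes on other chromosomes, at 2.33 ± 0.23 (adjusted p = 8.9e-09), and 2.25 ± 0.29 (adjusted p = 2.5e-06). The other members of the 10 highest, IGMT3, IGMT2 and NIMIN1, are described above.

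At the low end, ECS1 had 129, 229 and 239 RPM in bes1-D, against 5089.6, 3598 and 3333 RPM in WT, a difference of -4.36 ± 0.29 (adjusted p = 1.8e-12). The gene of the microRNA precursor MIR167d had 0.138, 0.105 and 0.448 RPM in bes1-D, against 6.67, 9.74 and 19.2 RPM in WT. AOX1D, an alternative oxidase of mitochondria that stress induces, had 2.80, 3.00 and 2.0 RPM in bes1-D, against 39.0, 46.8 and 40.6 RPM in WT, and differed by -3.79 ± 0.33 (adjusted p = 9.0e-10). PDS1, the hydroxyphenylpyruvate dioxygenase of vitamin E and plastoquinone synthesis, had 24.8, 40.3 and 37.1 RPM in bes1-D, against 278, 309.6 and 367 RPM in WT, a difference of -3.23 ± 0.21 (adjusted p = 1.1e-12). CAX3, a vacuolar calcium exchanger, had 7.28, 4.89 and 4.69 RPM in bes1-D, against 65.0, 53.8 and 49.0 RPM in WT, and differed by -3.22 ± 0.23 (adjusted p = 5.5e-12). CYP89A5, a cytochrome P450, GLYI7, of the glyoxalase I family, and TPS03, a terpene synthase, averaged 6.85 ± 0.928 RPM in bes1-D and 62.8 ± 6.21 RPM in WT, 23.1 ± 13.4 RPM in bes1-D and 177 ± 40.1 RPM in WT and 0.450 ± 0.456 RPM in bes1-D and 6.57 ± 1.27 RPM in WT. BR6OX2 and CPD complete the 10 lowest.

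Calls were unevenly spread along chromosome 1. In the order of tested genes, a stretch of 1000 genes that starts with BES1 (AT1G19350 to AT1G33960) held 188 calls, or 18.8%, with 90 higher and 98 lower. All other genes of chromosomes 1 to 5 had 8.81% called. In 5 successive bins of 200 genes from BES1 onwards the share was 16.0% to 21.0%, while the bin before BES1 had 11.0% and the bin after the stretch 7.00%. A further bin of 200 genes, which starts 2200 genes after BES1 (AT1G63480 to AT1G66190), had 21.0%. The stretch also held 34 of the calls that were at least 4-fold, against 110 in all other genes. Both stretches were picked after the shares had been seen. The first held 18.3% calls with edgeR and 8.65% elsewhere, 25.1% and 13.9% with the block within the 6 libraries, and 12.3% and 4.29% without replicate 3 of both genotypes. In unstressed leaves 24.5% of the stretch was called for bes1-D against 15.2% elsewhere. For bri1-301 against the same dehydrated WT libraries, the shares were 1.5% in the stretch and 1.1% elsewhere. Of the called genes that are named in the text, IGMT2, IGMT3, WAK3, WAK4, TBL38, ECS1, MIR167d, AOX1D, LHCB1.2, EXPA11, PRE6, SAUR68, GRX480 and BES1 lie in this stretch. IGMT1, IGMT4 and MYC2 lie there too and were not called. No gene called in the lists of brassinosteroid synthesis, stress factors, DREB and ERF factors, jasmonate or sugar starvation does.

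**Figure D5:**
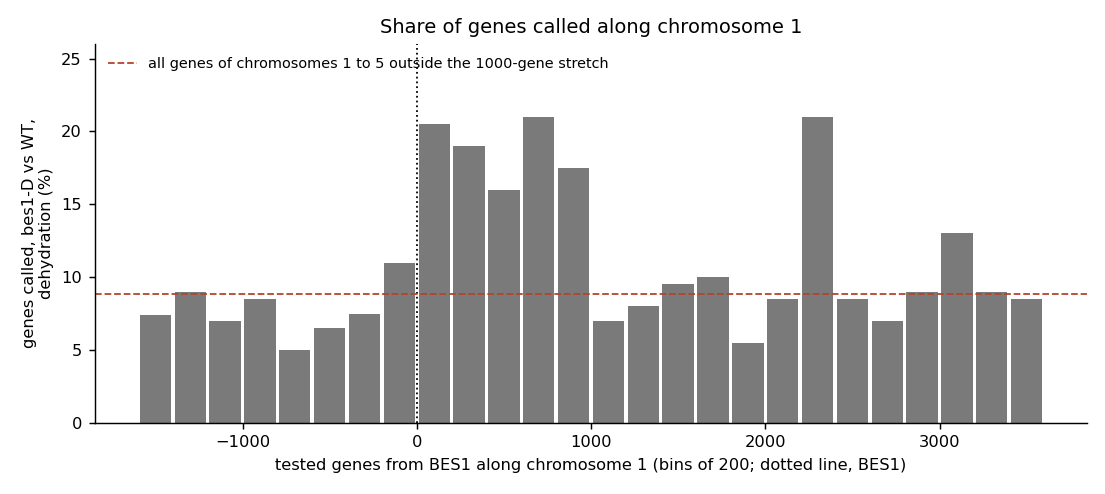
Percent of tested genes called in dehydrated bes1-D against WT, in bins of 200 genes along chromosome 1 counted from BES1 (dotted line), with the share of all genes outside the 1000-gene stretch as a dashed line at 8.81%. The 5 bins after BES1 stand at 16.0% to 21.0%, and a bin that starts 2200 genes away at 21.0%.

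Whether genes of the dehydration response were shifted in bes1-D was read from genes defined without the 2 genotypes. The rule took genes called in the same direction, dehydration against control, in at least 2 of atg7-2, DSK2 RNAi and bri1-301, which gave 46 induced and 39 repressed genes. Since atg7-2 had 0 such calls with limma (1258 genes at an unadjusted p under 0.05), 0 with edgeR and 21 with DESeq2, both sets rest on DSK2 RNAi and bri1-301. Of the 85 genes, 25 were called here. When WT replicate 2 was left out and the sets were formed anew, they held 16 calls. Of the induced genes 13, or 28.3%, were called lower in dehydrated bes1-D than in dehydrated WT and none higher, beside 4.34% of all genes called lower, and 37 had a negative difference, with a median of -0.66. Of the repressed genes 11, or 28.2%, were called higher and 1 lower, beside 4.97% of all genes called higher, with a median of 0.29. The named induced genes were AOX1D, TPS03 and GSTU3, a glutathione transferase with 2.66, 6.28 and 3.48 RPM in bes1-D, against 18.7, 28.9 and 31.3 RPM in WT, and UGT76E12, a glycosyltransferase with 3.99 ± 0.690 RPM in bes1-D and 22.0 ± 2.41 RPM in WT, and CYP71A13. GSTU3 differed by -2.57 ± 0.40 (adjusted p = 4.7e-05), and UGT76E12 by -2.33 ± 0.45 (adjusted p = 0.00057). ACGTGT was present in 46.7% of 45 promoters of the induced set, against 13.8% of all tested genes.

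The named repressed genes that were higher in bes1-D were IGMT2, ZIP5, SAUR68, CNI1 and WRKY7. ZIP5, of a family of zinc and iron transporters, had 27.4, 23.0 and 26.7 RPM in bes1-D, against 7.26, 6.98 and 8.33 RPM in WT, a difference of 1.71 ± 0.21 (adjusted p = 5.7e-07). CNI1, a ubiquitin ligase of carbon and nitrogen balance, had 73.7, 76.7 and 96.4 RPM in bes1-D, against 27.7, 23.8 and 38.4 RPM in WT, and differed by 1.46 ± 0.24 (adjusted p = 8.3e-05). SAUR68 and WRKY7 differed by 1.64 ± 0.26 (adjusted p = 5.9e-05), and by 0.74 ± 0.21 (adjusted p = 0.024). The ubiquitin ligase PUB26 was the repressed gene called lower, at -0.58 ± 0.16 (adjusted p = 0.019). In unstressed leaves the same sets had medians of -0.49 for the induced and 0.40 for the repressed genes, beside -0.20 for all genes. There 9 induced genes were called lower and 9 repressed genes higher, beside 8.86% and 6.82% of all genes. The genotypes' own responses, dehydration minus control, had medians over the induced set of 0.83 in bes1-D and 1.22 in WT. Over the repressed set the medians were -1.23 in bes1-D and -1.03 in WT, so there the fall was larger in bes1-D. No gene of either set passed the test of whether the bes1-D difference changed with dehydration.

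The bes1-D difference was also present in leaves that had not been dehydrated. In control leaves 1352 genes (6.82%) were called higher and 1757 (8.86%) lower in bes1-D than in WT, and in starved leaves 1883 (9.5%) and 3160 (15.9%). No library is shared between the 3 comparisons. Of the genes called higher under dehydration 645 were also called higher in control, which is 65.4% of the dehydration list and 47.7% of the control list. Of those called lower 648 were lower in control as well, 75.3% of the dehydration list and 36.9% of the control list. A single gene, AT2G14290, was called lower under dehydration and higher in control. Starvation shared 384 higher and 437 lower genes with dehydration, 38.9% and 50.8% of the dehydration lists, and 73 further genes were called in opposite directions. In all 3 treatments 333 genes were higher and 387 lower. Brassinosteroid synthesis had 6 members lower and none higher in control, and 7 lower and 1 higher in starvation. Its medians were -1.27 and -1.58, where the median of all genes was -0.20 in both. The growth genes had 11 members higher and 3 lower in control, beside 6.82% and 8.86% of all genes. In starvation they had 3 higher and 1 lower, beside 9.5% and 15.9% of all genes.

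A direct test of whether the bes1-D difference changed with dehydration called 13 genes (0.0656% of those tested), all with a lower difference under dehydration than in control. DDF1, a DREB-type factor, averaged 0.993 ± 0.0362 RPM in bes1-D and 0.160 ± 0.0721 RPM in WT after dehydration, against 23.2 ± 15.3 RPM in bes1-D and 0.195 ± 0.121 RPM in WT in control leaves (SD, n = 3 libraries each). Its change in the log2 difference was -3.73 ± 0.36, with an adjusted p of 4.9e-07 (limma). LOX4, a jasmonate lipoxygenase, averaged 8.54 ± 2.52 RPM in bes1-D and 18.0 ± 3.89 RPM in WT after dehydration, against 45.0 ± 20.0 RPM in bes1-D and 11.8 ± 1.68 RPM in WT in control, a change of -2.87 ± 0.55 (adjusted p = 0.023). BZIP60, a factor of the unfolded protein response, averaged 68.2 ± 10.6 RPM in bes1-D and 80.4 ± 19.3 RPM in WT after dehydration, against 149 ± 32.6 RPM in bes1-D and 57.6 ± 4.16 RPM in WT in control, a change of -1.57 ± 0.29 (adjusted p = 0.023). ASAT1, a sterol acyltransferase, changed by -1.41 ± 0.28 (adjusted p = 0.037). In all 13 genes the mean of the bes1-D controls was above that of the WT controls. The count was 97 with DESeq2, 31 with edgeR, 29 without bes1-D control replicate 3 and 0 in the limma fit of the 4 compared groups alone, where 612 genes had an unadjusted p under 0.05. Leaving out a dehydrated library gave 3 without bes1-D replicate 1, 8 without bes1-D replicate 2, 20 without WT replicate 1, 5 without WT replicate 2 and 3 without WT replicate 3. DDF1 kept its call when each of the 6 dehydrated libraries was left out. LOX4 lost its call without bes1-D replicate 1 or 3 or WT replicate 2 or 3 (highest adjusted p 0.095), BZIP60 without bes1-D replicate 1 or 2 or WT replicate 3 (0.13), and ASAT1 without any library except WT replicate 1 (0.22). The fit with all groups called 79 genes higher and 154 lower in dehydrated against control bes1-D, and 23 and 36 in dehydrated against control WT.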

How the data were processed

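Leaf RNA of dehydrated bes1-D and WT was measured by RNA-seq. Per the file headers, the values that the authors named RPM hold 1 signal for each gene of a library. It is called a signal because the columns sum to 985308 to 1023136 and not to a fixed total. Per the submitters' processing notes, the tools were GSNAP and DESeq2 and the genome build TAIR10, without roles. The sources used here do not state the use of strand. Of the 64 samples, 24 have no column here and were not analysed. Of 33366 lines 4591 had no gene ID and were left out. With a tolerance of 0.01 reads, 100% of values were whole reads, at 26.3 to 29.8 reads per RPM.

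The test took the 19824 genes that reached 1 RPM in 2 or more of the 40 libraries. On log2(RPM + 0.5), limma 3.58.1 fitted a mean for each of 15 groups with its trend option (25 residual degrees of freedom), two-sided, with Benjamini-Hochberg adjustment over all genes in each contrast and calls at adjusted p under 0.05. edgeR 4.0.16 and DESeq2 1.42.0 were run on the recovered reads as alternatives. On the recovered reads edgeR called 1807 genes and DESeq2 2303. The script was tested on simulated data. The deviations of same-numbered bes1-D and WT libraries from their group means correlated at 0.56, 0.56 and 0.81 for numbers 1, 2 and 3. Across numbers, bes1-D replicate 1 correlated at 0.56 with WT replicate 2, and bes1-D replicate 2 at 0.55 with WT replicate 1. The check therefore sets replicate 3 apart and cannot decide how replicates 1 and 2 pair. The labels do not say what a number stands for, and the numbers were used as a block in alternative fits only. Between replicates, chi-square was 14.1 to 144 per degree of freedom, so no replicate differed from another by counting error alone. The value cannot tell separate plants from separate libraries of the same RNA. Intervals and floors cover counting error only.

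Symbols came from a TAIR10.1 gene table, in which 28009 of 28775 genes matched. TAIR10.1 was used for names, gene order, transcript length and promoter sequence, and its nuclear chromosomes have the lengths of TAIR10. The comparison, the 30 gene lists and the rule for named genes were chosen with earlier results of these data known. The rule took BES1, every called member of the brassinosteroid, growth, BES1 family, stress factor, DREB and WRKY lists and up to 4 of each other list, the 10 highest and 10 lowest genes with a symbol, 5 RPM and no overlap, and up to 5 genes in each direction of the interaction and of the responsive sets. Genes named without a call, and further members given by their difference alone, were chosen after their values were seen. Alternatives changed the pseudocount, the filter, the libraries, the scaling, the tool, the block and the length trend.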

Additional observations from a re-analysis of the deposited data

Results flagged for a closer look

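In 4 genes the difference between bes1-D and WT differed between dehydrated and control leaves by limma's interaction test, among genes with a symbol and 5 RPM. The bes1-D minus WT difference under dehydration minus that in control was -3.73 for DDF1, -2.87 for LOX4, -1.57 for BZIP60 and -1.41 for ASAT1 on the log2 scale, with adjusted p of 4.9e-07, 0.023, 0.023 and 0.037. Under median-ratio scaling the adjusted p of BZIP60 was 0.093 and that of ASAT1 0.053, and in the fit of the 4 compared groups alone none of the 4 passed, with adjusted p of 0.085 to 0.84 over the 4 genes. Over the alternatives run, the adjusted p of DDF1 ranged from 8.6e-08 to 0.085, that of LOX4 from 5.8e-06 to 0.16, that of BZIP60 from 0.0078 to 0.37 and that of ASAT1 from 0.0025 to 0.84. DDF1 kept its call when each of the 6 dehydrated libraries was left out in turn, and each of the other 3 lost it without at least 3 of them.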

How the results depend on the processing

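The count of genes called in bes1-D against WT under dehydration moved by over 1.5 times in the fit of the compared libraries alone (607), with the replicate block within them (2871) and without replicate 3 of both dehydrated groups (930), and ranged from 1153 to 1795 when 1 library was left out. The replicate block over all 40 libraries gave 2004 calls, 12 interaction calls and 27 calls in the dehydration-responsive sets, and ended the call of KIN2 among the named genes, while the block within the 6 libraries ended that of RAP2.4 (adjusted p 0.051) and brought LOX4 in (0.012). The interaction count was 0 in the fit of the compared groups, 27 under median-ratio scaling, 31 with edgeR, 97 with DESeq2, 48 with the length trend removed, 4 without replicate 3 of both dehydrated groups and 29 without bes1-D control replicate 3, and ranged from 3 to 20 when 1 library was left out. The responsive sets were formed anew in each setting, so their sizes could differ. At a pseudocount of 0.1 they held 39 induced and 35 repressed genes. Their counts of calls are therefore not shares of the 85 genes of the main fit. Calls in these sets numbered 83 with DESeq2, 65 with the length trend removed and 16 without replicate 3 of both dehydrated groups. They ranged from 16 to 20 when 1 library was left out. The cause was not tested. No named gene changed direction with a call, and 58 of 106 named calls held under all 18 alternatives. The fit of the compared libraries alone ended 38 named calls, among them BES1, DWF4, STE1 and BRL3. The calls of 32 named genes were lost when at least 1 of the 6 dehydrated libraries was left out, and those of ERF105 and HAI2 were lost without each of the 6. The others were AP1, BAM1, CBF2, COR15B, COR413-PM1, CYP79F1, ERF1, ERF104, EXPA8, FMOGS-OX3, IAA19, IAA29, IVD, KIN2, LOX2, LOX3, PAP1, PDF1, PIP2;8, PRE1, PUB26, RAP2.4, RS5, RVE4, SOT17, TIP2;1, TIP2;2, WRKY18, WRKY60 and WRKY7. The 3 choices added after seeing the data were the block within the 6 libraries, leaving out replicate 3 of both dehydrated groups and leaving out bes1-D control replicate 3. With 3 libraries a group and 28785974 to 29420302 reads each, levels near 0.1 RPM rest on about 3 reads.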
